A study of Homo sapiens with 8 samples.

Results

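The 9 genes described here encode ligands and an enzyme by which tumour cells restrain immune attack: CD274 (PD-L1), PDCD1LG2 (PD-L2), CD276 (B7-H3) and VTCN1 (B7-H4) of the B7 family, PVR (CD155) and NECTIN2 (CD112) of the nectin family, LGALS9 (galectin-9), CD47, and NT5E (CD73). They were picked by symbol through the Entrez identifier, and all 9 were found among 18478 genes. RNA-seq gave their levels in C8161 and A2058, established human melanoma lines, each with ATF3 introduced by retroviral transduction or with a neomycin control. ATF3 belongs to the ATF/CREB factors and is switched on by many kinds of cell stress. The groups were C8161 with ATF3 (3 libraries), C8161 control (3 libraries), A2058 with ATF3 (1 library) and A2058 control (1 library), all in DMEM with 10% fetal bovine serum, and the labels do not say whether transduced cells were clones or pools. The table gives RPKM, reads scaled by transcript length in kilobases and by library size, as the authors' combined value for each arm of C8161 and as 1 value for each A2058 library, so no value has a replicate spread, no test was possible, and every difference below describes these columns alone.

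PD-L1 and PD-L2 on a tumour cell bind PD-1 on T cells and dampen their activation, and PD-L1 is induced by interferon-gamma through JAK kinases and IRF1. CD155 and CD112 are read by the inhibitory receptors TIGIT, CD96 and PVRIG and by the activating receptor CD226 on T and natural killer cells. CD47 gives phagocytes a signal through SIRPA that spares the cell, galectin-9 is a ligand of TIM-3 (HAVCR2), and CD73 turns extracellular AMP into adenosine, which suppresses lymphocytes through adenosine receptors. In melanoma, CD73 and PD-L1 have been associated with dedifferentiated, MITF-low cell states.

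The steps between low A2058 values place the depth near 17650000 reads for the ATF3 library and 18050000 for its control. The same scan gave 5200000 and 5000000 reads for the C8161 ATF3 and control columns, at or beside the lower end of the depths scanned (5000000 reads), and a column combined over 3 libraries need not have a single step, so these were not used as depths. The steps were weakly marked in all 4 columns (coherence 0.169 to 0.233, where 1 would be perfect), and the A2058 depths are rough. Between 10866 and 11753 genes reached 1 RPKM in a column. ATF3 itself was at 62.6 RPKM with ATF3 and 4.76 RPKM in the control in C8161, and at 4.71 RPKM with ATF3 and 1.22 RPKM in the control in A2058. The markers fixed for the melanocyte lineage (MITF, PMEL, MLANA, TYR, DCT, SOX10, TYRP1 and PAX3) summed to 1.70 and 1.58 RPKM in C8161 with ATF3 and control, against 1501 and 1469 RPKM in A2058 with ATF3 and control. SOX10 was at or under 0.06 RPKM and PAX3 was listed at 0 in both C8161 columns, so defining markers of the melanocyte lineage were near or at 0 in that line. Of 7 markers of dedifferentiated melanoma, 5 (AXL, EGFR, WNT5A, SOX9 and FOSL1) were higher in C8161 by a log2 ratio of at least 1 in both arms and NGFR was lower, where 8.8% of all 12260 genes compared were higher and 19.3% lower. EGFR, WNT5A and SOX9 reached 1 RPKM only in C8161 and NGFR only in A2058. These marker levels move with the line, and their part in the line differences below was not tested.

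For the 7 of 9 members compared between the lines, the line differences were larger than those between ATF3 and control. The smallest line difference was a log2 ratio of 0.57 in size and the largest ATF3 difference 0.23. This was not particular to the members: of all genes compared, 8.8% were higher and 19.3% lower in C8161 by at least 1 in both arms. With ATF3, 5.78% of all genes in C8161 and 4.19% in A2058 had a log2 ratio of 0.25 or more in size. CD274 and PDCD1LG2 reached 1 RPKM only in C8161 and could only come out higher there. NT5E, CD274 and PDCD1LG2 were higher in C8161 by more than a log2 ratio of 2.5 on the log2(RPKM + 1) scale, in the ATF3 columns and in the control columns alike. CD276, PVR, NECTIN2 and CD47 were expressed in both lines and differed by a log2 ratio of 0.57 to 1.04 in size. VTCN1 and LGALS9 were under 1 RPKM in every column. With ATF3, no member compared reached a log2 ratio of 0.25 in either direction in either line, and most genes did not either.

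**Figure D1:**
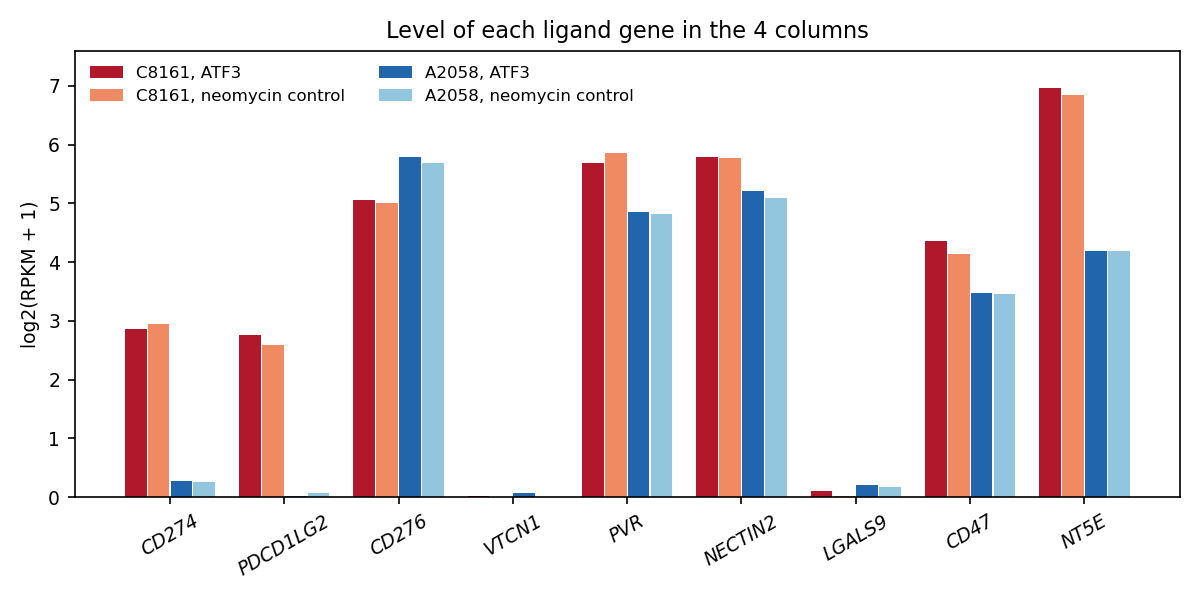
Bars give log2(RPKM + 1) of each ligand gene in the 4 columns, C8161 in red and A2058 in blue, with the ATF3 column left of its control; each bar is 1 deposited value with no error. CD274 and PDCD1LG2 stand at 5.04 to 6.71 RPKM in C8161 and at or under 0.21 RPKM in A2058, while neighbouring ATF3 and control bars are nearly level.

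In C8161 with ATF3 the order of level per length was NT5E, NECTIN2, PVR, CD276, CD47, CD274, PDCD1LG2, LGALS9 and VTCN1. PVR and NECTIN2 changed places between the arms (54.1 RPKM for NECTIN2 and 50.3 RPKM for PVR with ATF3, against 53.5 and 56.8 RPKM in the control), so their order is not resolved. NT5E, at 124 and 114 RPKM with ATF3 and control, was at or above 96.7% and 96.4% of all genes in its C8161 columns. In A2058 the order was CD276, NECTIN2, PVR, NT5E and CD47 in both arms, with CD274, LGALS9, PDCD1LG2 and VTCN1 all at or under 0.21 RPKM. CD276 was at or above 91.4% and 90.6% of all genes there, and NT5E at or above 74.9% in each column.

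CD274 (Entrez gene 29126; chromosome 9, 5450542 to 5470554, GRCh38, the assembly of the authors' hg38 build) encodes PD-L1. In C8161 it was at 6.30 RPKM with ATF3 and 6.71 RPKM in the control, a log2 ratio of −0.08. In A2058 it was at 0.21 RPKM with ATF3 and 0.20 RPKM in the control. On its longest reference transcript the A2058 values correspond to about 14 and 13 reads, with 95% exact Poisson intervals of 0.119 to 0.365 RPKM and 0.105 to 0.338 RPKM that cover counting error only and rest on the estimated depth. PD-L1 transcript was therefore detected in A2058, at a level at which the arms cannot be told apart. C8161 was above A2058 by a log2 ratio of 2.59 in the ATF3 columns and 2.68 in the control columns. The RPKM values of the control columns, without the added 1 RPKM that shrinks the log2 ratio, differed about 34-fold. This fold is rough, since it rests on the low A2058 value and its wide interval.

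PDCD1LG2 (Entrez gene 80380; chromosome 9, 5510531 to 5571282) encodes PD-L2, the other ligand of PD-1, and starts 39.98 kb beyond the end of CD274. It was at 5.75 RPKM with ATF3 and 5.04 RPKM in the control in C8161, a log2 ratio of 0.16 and a 1.14-fold higher value with ATF3. In A2058 it was at 0.02 RPKM with ATF3 and 0.05 RPKM in the control, about 1 and 2 reads, which is at the limit of detection, and no fold between the lines is given. On the log2(RPKM + 1) scale C8161 was above A2058 by 2.73 in the ATF3 columns and 2.52 in the control columns. Per length, CD274 thus stood above PDCD1LG2 in both C8161 columns, at 6.30 against 5.75 RPKM with ATF3 and 6.71 against 5.04 RPKM in the control. The 2 genes lay on different sides of 0 in the ATF3 ratio.

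The 250 bases before the annotated start of CD274, from the RefSeq promoter table of GRCh38.p14 (plus strand, chr9:5450292-5450541), are shown because interferon-responsive elements near this start are known to drive the gene. Capitals mark every match, on either strand, to the IRF-type repeat (GAAA, any 2 bases, GAAA), which interferon regulatory factors bind. The 2 IRF-type matches overlap each other.
CD274: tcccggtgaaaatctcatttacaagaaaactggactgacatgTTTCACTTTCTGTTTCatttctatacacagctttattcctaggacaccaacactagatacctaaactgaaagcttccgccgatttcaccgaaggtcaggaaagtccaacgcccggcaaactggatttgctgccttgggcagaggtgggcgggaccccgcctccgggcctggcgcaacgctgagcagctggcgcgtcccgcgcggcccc
The window holds overlapping matches to the IRF-type repeat whose first bases lie 208 and 202 bases before the start. Of 35116 promoter windows of this length, 3.02% hold the IRF-type letters. Neither the full CRE TGACGTCA (1.65% of windows) nor the AP-1 letters TGANTCA (6.57%), the sites ATF3 dimers are known to bind, is in this window. These matches are descriptions of letters, not of binding.

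The genes around CD274 were set beside it. Of 21 genes of the table that start within 1000 kb of the CD274 start, 15 reached 1 RPKM in a column of each arm's comparison. Only CD274, PDCD1LG2 and their neighbour PLGRKT, a plasminogen receptor, were higher in C8161 by a log2 ratio of at least 1 in both arms. Of all genes compared, 8.8% were. PLGRKT was at 19.0 RPKM with ATF3 and 20.3 RPKM in the control in C8161, against 7.11 RPKM with ATF3 and 6.98 RPKM in the control in A2058. JAK2, the kinase of the interferon-gamma receptor, lies on the other side of PLGRKT and was at 2.45 and 2.21 RPKM in C8161 with ATF3 and control, against 3.66 and 3.82 RPKM in A2058. SLC1A1 and MLANA, the melanocyte antigen Melan-A, were lower in C8161 by at least 1 in both arms, where 19.3% of all genes were. CD274 and PDCD1LG2 reached 1 RPKM only in C8161 and could only come out higher there. SLC1A1 and MLANA reached it only in A2058 and could only come out lower in C8161. MLANA was at 0.33 and 0.21 RPKM in C8161 with ATF3 and control, against 20.7 and 17.8 RPKM in A2058, and its start lies 440.3 kb from that of CD274.

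**Figure D2:**
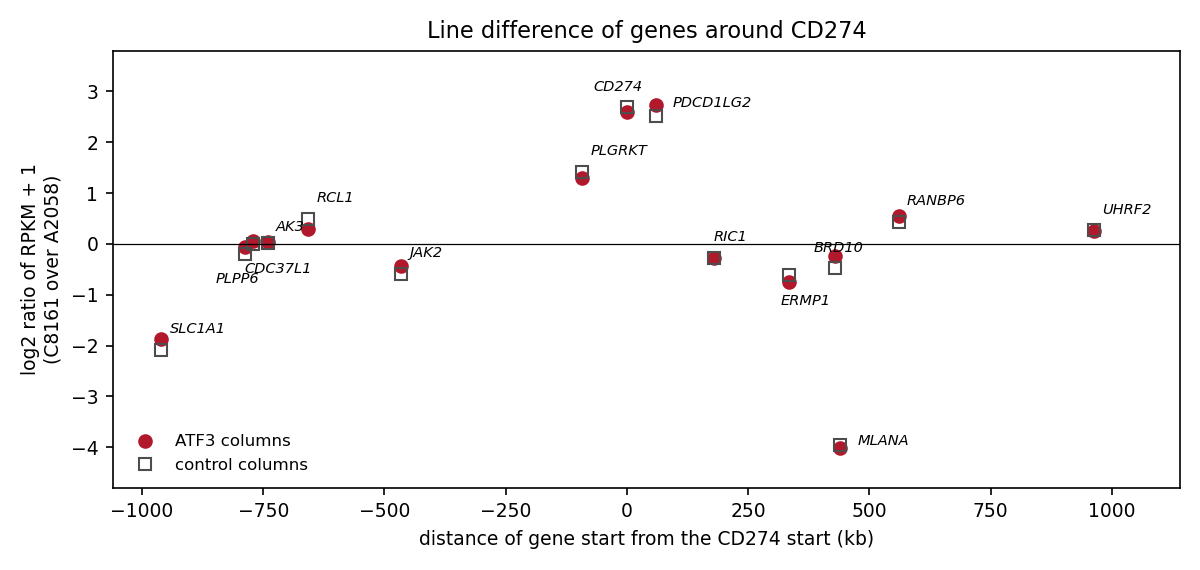
Each of the 15 genes compared around CD274 is placed at the distance of its start from the CD274 start (kb) and at its log2 ratio of C8161 over A2058, filled circles for the ATF3 columns and open squares for the control columns. CD274, PDCD1LG2 and PLGRKT stand above 1, SLC1A1 and MLANA below −1, and the others between.

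CD276 (Entrez gene 80381; chromosome 15, 73683944 to 73714514) encodes B7-H3, a B7 molecule common on solid tumours whose receptor is not settled. It was at 32.3 RPKM with ATF3 and 31.2 RPKM in the control in C8161, and at 54.5 RPKM with ATF3 and 50.4 RPKM in the control in A2058. Of the members compared between the lines, it was the single one lower in C8161, with log2 ratios of −0.74 in the ATF3 columns and −0.68 in the control columns. With ATF3 its log2 ratio was 0.05 in C8161 and 0.11 in A2058. VTCN1 (Entrez gene 79679; chromosome 1, 117143587 to 117210927), which encodes the T-cell inhibitor B7-H4, was barely detected. C8161 had 0.01 RPKM with ATF3 and a listed value of 0 in the control, and A2058 had 0.05 RPKM with ATF3, about 2 reads, and a listed value of 0 in the control. A count of 0 in that A2058 column allows up to about 3 reads, or 0.0611 RPKM, as a 1-sided 95% limit. The upper end of the 2-sided exact 95% Poisson interval is 0.0752 RPKM.

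Of the 9 B7 ligands with values, CD274, PDCD1LG2, CD276 and VTCN1 among them, 5 had at least 1 RPKM in each arm's comparison of the lines, and 3 were higher in C8161 by a log2 ratio of at least 1 in both arms (CD274, PDCD1LG2 and NCR3LG1), with none lower, against 8.8% and 19.3% of all genes. CD274 and PDCD1LG2 reached 1 RPKM only in C8161 and could only come out higher there. NCR3LG1, the B7-H6 ligand that activates natural killer cells through NKp30, was at 9.69 RPKM with ATF3 and 8.10 RPKM in the control in C8161, against 2.20 RPKM with ATF3 and 2.63 RPKM in the control in A2058. CD80, a ligand of CD28 and CTLA4, was at or under 0.05 RPKM in every column. CD86 was not analysed here.

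PVR (Entrez gene 5817; chromosome 19, 44643910 to 44666162) encodes CD155. It was at 50.3 RPKM with ATF3 and 56.8 RPKM in the control in C8161, a log2 ratio of −0.17, and at 27.9 RPKM with ATF3 and 27.1 RPKM in the control in A2058, a log2 ratio of 0.04. It was lower with ATF3 in C8161 and marginally higher in A2058. Between the lines, C8161 was 1.80-fold higher in the ATF3 columns and 2.09-fold higher in the control columns. NECTIN2 (Entrez gene 5819; chromosome 19, 44846297 to 44889223), 180.1 kb beyond PVR, encodes CD112, the ligand of PVRIG. It was at 54.1 RPKM with ATF3 and 53.5 RPKM in the control in C8161, and at 36.1 RPKM with ATF3 and 33.1 RPKM in the control in A2058, with log2 ratios for ATF3 of 0.02 in C8161 and 0.12 in A2058. C8161 was 1.501-fold higher in the ATF3 columns and 1.62-fold higher in the control columns.

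Of 8 nectins and nectin-like genes, 6 were compared between the lines, and CADM1 and CADM4, adhesion molecules of the same superfamily, were lower in C8161 by at least 1 in both arms, where 19.3% of all genes were; neither reached 1 RPKM in C8161. CADM1 was at 0.97 RPKM with ATF3 and 0.74 RPKM in the control in C8161, against 28.5 and 26.8 RPKM in A2058 with ATF3 and control. NECTIN1 and NECTIN3 lay between 8.06 and 9.76 RPKM in all 4 columns, and NECTIN4 at or under 0.09 RPKM.

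LGALS9 (Entrez gene 3965; chromosome 17, 27631188 to 27649560) encodes galectin-9 and was near the limit of detection. It was at 0.07 RPKM with ATF3 and 0.02 RPKM in the control in C8161, and at 0.15 RPKM with ATF3 and 0.13 RPKM in the control in A2058. The A2058 values correspond to about 8 and 7 reads. Since 17.9% of its longest transcript occurs in transcripts of other genes, among them LGALS9C, even these low values are uncertain. Other galectins were abundant in the same columns. LGALS1, which can kill activated T cells, was at 1085 RPKM with ATF3 and 1201 RPKM in the control in C8161, against 1006 and 975 RPKM in A2058 with ATF3 and control. LGALS3, a binder of LAG3 and other T-cell glycoproteins, was at 37.0 RPKM with ATF3 and 39.9 RPKM in the control in C8161, against 221 and 213 RPKM in A2058. Of 5 galectin-list genes compared between the lines, none was higher in C8161 by at least 1 and 3 were lower (LGALS3, LGALS12 and LGALS3BP), against 8.8% and 19.3% of all genes. LGALS12 was listed at 0 in both C8161 columns and entered through A2058 alone.

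CD47 (Entrez gene 961; chromosome 3, 108043091 to 108091031) had the largest ATF3 ratio of the 9 genes. In C8161 it was at 19.5 RPKM with ATF3 and 16.5 RPKM in the control, 1.18-fold higher with ATF3 and a log2 ratio of 0.23. In A2058 it was at 10.1 RPKM with ATF3 and 10.0 RPKM in the control, a log2 ratio of 0.01. C8161 was 1.93-fold higher than A2058 in the ATF3 columns and 1.65-fold higher in the control columns. QPCTL, the glutaminyl cyclase that modifies CD47 for SIRPA binding, went the other way, at 5.15 and 5.70 RPKM in C8161 with ATF3 and control, against 11.1 and 12.1 RPKM in A2058. Its secreted relative QPCT was listed at 0 in both C8161 columns and was at 206 and 198 RPKM in A2058 with ATF3 and control; it was named after its values were seen. CALR, the calreticulin that opposes CD47 as a signal for engulfment when exposed at the surface, was at 1019 RPKM with ATF3 and 913 RPKM in the control in C8161, against 650 and 645 RPKM in A2058.

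NT5E (Entrez gene 4907; chromosome 6, 85450083 to 85495784) encodes CD73 and was the most abundant member in C8161. It was at 124 RPKM with ATF3 and 114 RPKM in the control in C8161, a log2 ratio of 0.12, and at 17.3 RPKM with ATF3 and 17.2 RPKM in the control in A2058, a log2 ratio of 0.0024. C8161 was 7.18-fold higher in the ATF3 columns and 6.61-fold higher in the control columns. ENTPD1 (CD39), which makes the AMP that CD73 uses, was lower in C8161, at 2.67 RPKM with ATF3 and 2.56 RPKM in the control, against 5.26 and 5.79 RPKM in A2058. Of 18 genes of the adenosine pathway, 13 were compared between the lines: NT5E and the adenosine kinase ADK were higher in C8161 by at least 1 in both arms, and 5 were lower, against 8.8% and 19.3% of all genes. The lower genes were ADA, which removes adenosine, the transporter SLC29A2, the receptors ADORA2A and ADORA2B, and the ATP-gated channel P2RX7. SLC29A2, ADORA2A and P2RX7 reached 1 RPKM only in A2058 and could only come out lower in C8161. ADORA2B was at 1.31 RPKM with ATF3 and 0.85 RPKM in the control in C8161, against 6.57 and 7.54 RPKM in A2058 with ATF3 and control, and it passed 0.25 with ATF3 in C8161 (log2 ratio 0.32, above its band). The value of ADORA2A is uncertain, since 86.8% of its longest transcript is shared with the read-through gene SPECC1L-ADORA2A.

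The promoter windows of NT5E (plus strand, chr6:85449833-85450082) and CD47 (minus strand, chr3:108091032-108091281), again the 250 bases before the RefSeq start, are shown as examples of windows with the short CRE core TGACG that ATF/CREB factors recognise. They were picked after their ATF3 ratios were seen; CD276 and NECTIN2 also had ratios above 0 in C8161, and their windows hold no core. The table matched 8 of the 9 members, all but PDCD1LG2. Capitals mark the core on either strand.
NT5E: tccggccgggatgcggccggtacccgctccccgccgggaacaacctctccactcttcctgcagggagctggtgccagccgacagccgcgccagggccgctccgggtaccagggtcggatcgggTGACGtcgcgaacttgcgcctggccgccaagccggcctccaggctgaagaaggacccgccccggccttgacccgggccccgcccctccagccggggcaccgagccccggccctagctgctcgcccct
CD47: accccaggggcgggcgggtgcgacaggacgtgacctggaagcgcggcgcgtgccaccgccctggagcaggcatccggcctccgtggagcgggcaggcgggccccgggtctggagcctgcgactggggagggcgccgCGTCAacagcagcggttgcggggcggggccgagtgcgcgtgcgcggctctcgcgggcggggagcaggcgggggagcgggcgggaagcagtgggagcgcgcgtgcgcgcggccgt
The core begins 127 bases before the start in NT5E and 114 bases before it in CD47. It is found in 21.2% of the 35116 windows and is thus a common feature. It is part of the full CRE, which neither window holds. No match to the core, the full CRE or the AP-1 letters was found in the windows of PVR and NECTIN2, nor in either window of CD276 or that of LGALS9, while that of VTCN1 holds the core.

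With ATF3, no member compared had a log2 ratio of 0.25 or more in size in either line. Most genes did not either, so the counts are not read as a trait of the members. In C8161 7 of the 9 members reached 1 RPKM and could be compared. Of these, 0 of 7 had a log2 ratio of 0.25 or more in size (a 1.19-fold difference), where 5.78% of all 10941 genes compared did. Higher by that size were 2.58% of all genes and lower 3.2%. Of the 7, 5 were above 0, against 52% of all genes, and their median log2 ratio was 0.05 against 0.0068 over all genes. CD47 at 0.23 and PVR at −0.17 were the ends of the range. In A2058 5 members could be compared, 0 of 5 passed 0.25, where 4.19% of all 11883 genes did (2.34% higher and 1.85% lower). All 5 were above 0 (51.3% of all genes), by 0.0024 to 0.12, though NT5E at the low end took the other sign after quantile normalization (−0.0014) and after removal of GC and length trends (−0.0038). Their median was 0.04 against 0.0039 over all genes.

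For scale, a level band was drawn around each gene: the range that holds the middle 95% of ratios among 500 genes with the closest mean level. It describes the spread across genes and is no test. All 7 members compared in C8161 and all 5 in A2058 lay inside their bands, where by construction 2.65% of all genes in C8161 lay above and 2.61% below, and 2.6% and 2.61% in A2058. CD47 came closest in C8161, at 0.23 with an upper edge of 0.27. NECTIN2 came closest in A2058, at 0.12 with an upper edge of 0.14. The difference between the lines in the ATF3 ratio was widest for CD47, 0.22 higher in C8161, and for PVR, −0.21. Of the 5 members compared in both lines, 0 differed by 0.25 or more, where 12.7% of all 10331 genes did. None of these differences was tested.

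**Figure D3:**
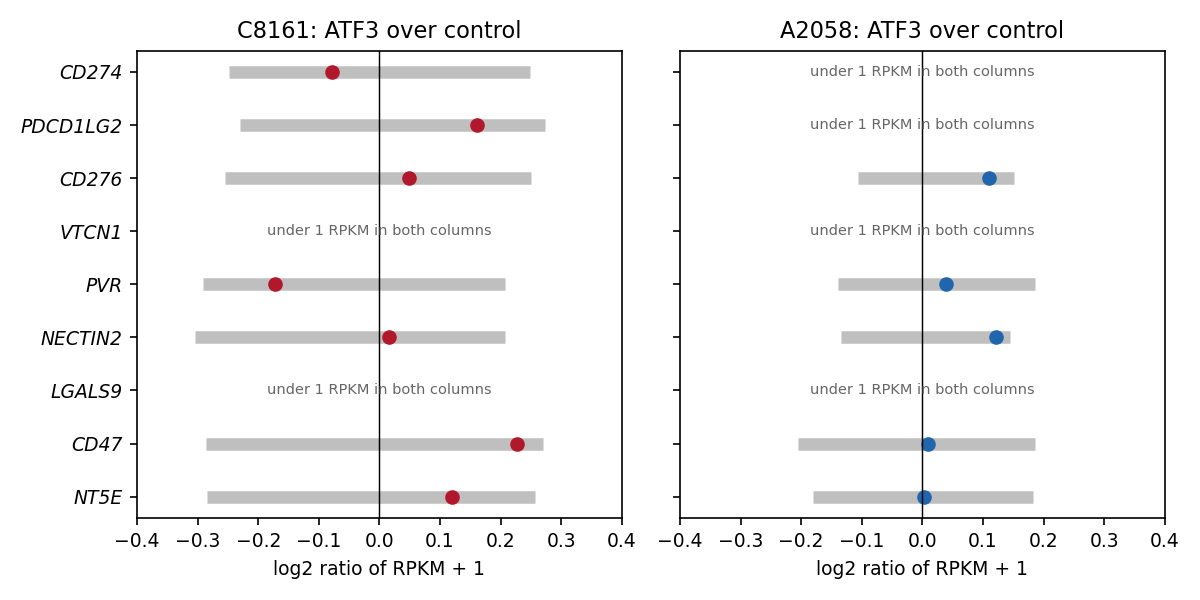
Points give the log2 ratio of RPKM + 1 with ATF3 over control for each ligand gene, C8161 at left and A2058 at right, and grey bars give the level band, which holds the middle 95% of ratios among 500 genes of similar level. Every point lies inside its bar, with CD47 in C8161 and NECTIN2 in A2058 nearest to the upper edge.

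Between the lines 7 of the 9 members could be compared. Of these 7, 3 (CD274, PDCD1LG2 and NT5E) were higher in C8161 by a log2 ratio of at least 1 in both the ATF3 and the control columns, against 8.8% of all 12260 genes compared, and 0 were lower, against 19.3%. CD274 and PDCD1LG2 entered this comparison only through C8161, so they could only differ, and the count is not read as support for a pattern of the group. PVR passed in the control columns (1.04) and not in the ATF3 columns (0.83). Both C8161 columns lay above both A2058 columns for 6 of the 7, against 37% of all genes compared, and below both for 1, CD276, against 54.4%. The lines come from different donors, so the line, its history and its cell state cannot be told apart. Over all genes compared the median line ratio was −0.19 in the control columns.

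**Figure D4:**
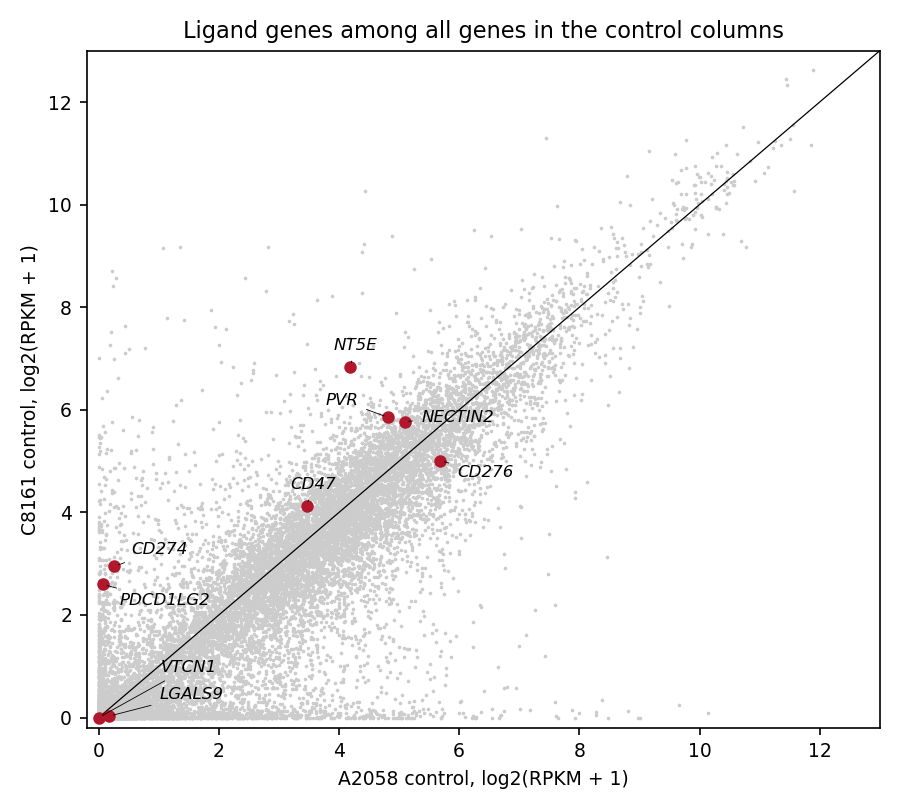
Each grey dot is a gene at its log2(RPKM + 1) in the A2058 control column (horizontal) and the C8161 control column (vertical), with the 9 ligand genes in red and a line of equal level. NT5E, CD274 and PDCD1LG2 stand well above the line, CD276 below it, and VTCN1 and LGALS9 near the origin.

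A list of receptors, mainly of lymphocytes and phagocytes, was examined as a check on immune cells and because melanoma cells can carry some of them. Not all of them bind the 9 members: CD28 and CTLA4 bind CD80, for example, and LAG3 binds LGALS3. Of 13 receptor genes with values, 8 were under 1 RPKM in all 4 columns: PDCD1 (PD-1), CD28, CD226, HAVCR2 (TIM-3), LAG3, SIRPG, TMIGD2 and TREML2. TIGIT was not analysed here. Of 5 compared between the lines, CTLA4, CD96 and PVRIG were lower in C8161 by at least 1 in both arms and RGMB was higher, against 19.3% and 8.8% of all genes. CTLA4 and CD96 reached 1 RPKM only in A2058. CD96, a CD155 receptor of T and natural killer cells, was at 0.04 RPKM in both C8161 columns, against 25.8 RPKM with ATF3 and 26.0 RPKM in the control in A2058. CTLA4, the T-cell checkpoint receptor, had a listed value of 0 with ATF3 and 0.02 RPKM in the control in C8161, against 6.34 and 5.53 RPKM in A2058. The pan-leukocyte gene PTPRC was at 0.25 and 0.24 RPKM in C8161 with ATF3 and control, against 0.37 and 0.43 RPKM in A2058, the T-cell gene CD3D at or under 0.57 RPKM in every column, and the cytotoxic-cell gene NKG7 was listed at 0 in every column. Of 11 leukocyte markers with values 7 were under 1 RPKM throughout, and their sum of 31.8 to 45.0 RPKM came mainly from CD68, whose longest transcript overlaps another gene over 95.3% of its length. CD68 was at 37.6 RPKM with ATF3 and 29.03 RPKM in the control in C8161, above its band, and at 38.2 and 36.1 RPKM in A2058; its part in the ligand ratios was not tested. In A2058, LYZ, the lysozyme gene, was at 2.07 RPKM with ATF3 and 1.28 RPKM in the control, above its band, while the Fc receptor chain FCER1G was at 0.39 RPKM with ATF3 and 1.17 RPKM in the control, below its band. ITGAX was at 0.88 and 1.02 RPKM in C8161 with ATF3 and control, against 3.07 and 2.82 RPKM in A2058. PVRIG values are likewise uncertain, since 94.5% of its longest transcript is shared with other genes.

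RGMB, a BMP co-receptor that also binds PD-L2, was at 26.5 RPKM with ATF3 and 24.6 RPKM in the control in C8161, against 4.90 and 4.58 RPKM in A2058; 60.4% of its longest transcript overlaps antisense transcripts, which cannot be separated without the strand setting. SIRPA, the receptor of CD47, was at 11.2 RPKM with ATF3 and 13.2 RPKM in the control in C8161, a log2 ratio of −0.22, against 20.8 and 21.2 RPKM in A2058. CD47 and SIRPA thus lay on different sides of 0 in the C8161 ATF3 ratio, each inside its band.

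Most genes of the interferon-gamma route to PD-L1 were expressed in both lines: 11 of 13 reached 1 RPKM in all 4 columns, SOCS1 did so only in C8161, and CIITA was at or under 0.24 RPKM throughout. Of the 13, 12 were compared between the lines, with IRF1 and SOCS1 higher in C8161 by at least 1 in both arms and IFNGR2 and STAT3 lower, against 8.8% and 19.3% of all genes. IRF1, the factor that binds the CD274 promoter, was at 10.1 RPKM with ATF3 and 9.98 RPKM in the control in C8161, against 3.77 and 3.29 RPKM in A2058; antisense transcripts overlap 33.3% of its longest transcript. SOCS1, a feedback inhibitor of JAK signalling, was at 5.15 and 4.64 RPKM in C8161 with ATF3 and control, against 0.78 and 0.50 RPKM in A2058. IRF2, an IRF1 antagonist, was the list's single gene past 0.25 with ATF3, where 5.78% of all genes in C8161 and 4.19% in A2058 were. In C8161 IRF2 was at 11.0 RPKM with ATF3 and 8.87 RPKM in the control (log2 ratio 0.28, above its band). In A2058 it was at 9.64 RPKM with ATF3 and 11.0 RPKM in the control (−0.18, inside its band). PTPN2 (log2 ratio 0.203) and IFNGR2 (0.147) lay above their bands in A2058. All 16 factors that govern PD-L1 protein stability were above 1 RPKM in every column. None was higher in C8161 by at least 1 in both arms and STUB1 and CDK5 were lower, against 8.8% and 19.3% of all genes. CMTM6, which protects PD-L1 from degradation, was at 38.8 and 36.5 RPKM in C8161 with ATF3 and control, against 24.4 and 24.6 RPKM in A2058. None of the 16 passed 0.25 with ATF3 in either line, where 5.78% of all genes in C8161 and 4.19% in A2058 did.

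Other ligands read by lymphocytes were listed beside the members. Of 8 butyrophilins, B7-related modulators of T cells, 5 were compared and 3 were under 1 RPKM in every column. Of the 5, 0 differed by at least 1 between the lines in both arms, where 8.8% of all genes were higher in C8161 and 19.3% lower. With ATF3 in C8161 1 of the 5 passed 0.25, where 5.78% of all genes did. It was BTN2A2, at 8.50 RPKM with ATF3 and 6.93 RPKM in the control. In C8161 1 of 9 natural killer cell ligands compared passed 0.25 with ATF3, where 5.78% of all genes did: CD70, the ligand of CD27, at 11.2 RPKM with ATF3 and 8.54 RPKM in the control, a log2 ratio of 0.35 and above its band. ULBP2, a ligand of the activating receptor NKG2D, was at 13.2 RPKM with ATF3 and 11.0 RPKM in the control (log2 ratio 0.24, above its band), against 1.74 and 2.06 RPKM in A2058. The ULBP2 values are uncertain, since 32.2% of its longest transcript is shared with RAET1L and RAET1G. Of 16 other suppressive genes compared between the lines, 7 were lower in C8161 and 2 higher (CD59 and TNFSF9), against 19.3% and 8.8% of all genes. Of the 7, CEACAM1, PTGES, SERPINB9 and TGFB3 reached 1 RPKM only in A2058 and could only come out lower in C8161. Among the lower ones were TNFRSF14 (HVEM), the ligand of BTLA, at 0.90 and 1.28 RPKM in C8161 with ATF3 and control, against 58.8 and 57.2 RPKM in A2058, and CEACAM1, a further ligand of TIM-3, at 0.22 and 0.13 RPKM in C8161, against 50.9 and 51.4 RPKM in A2058; both were named after their values were seen. TNFRSF14 was the single gene of this list past 0.25 with ATF3 in C8161, where 5.78% of all genes were. Its log2 ratio was −0.26, inside its band.

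**Figure D5:**
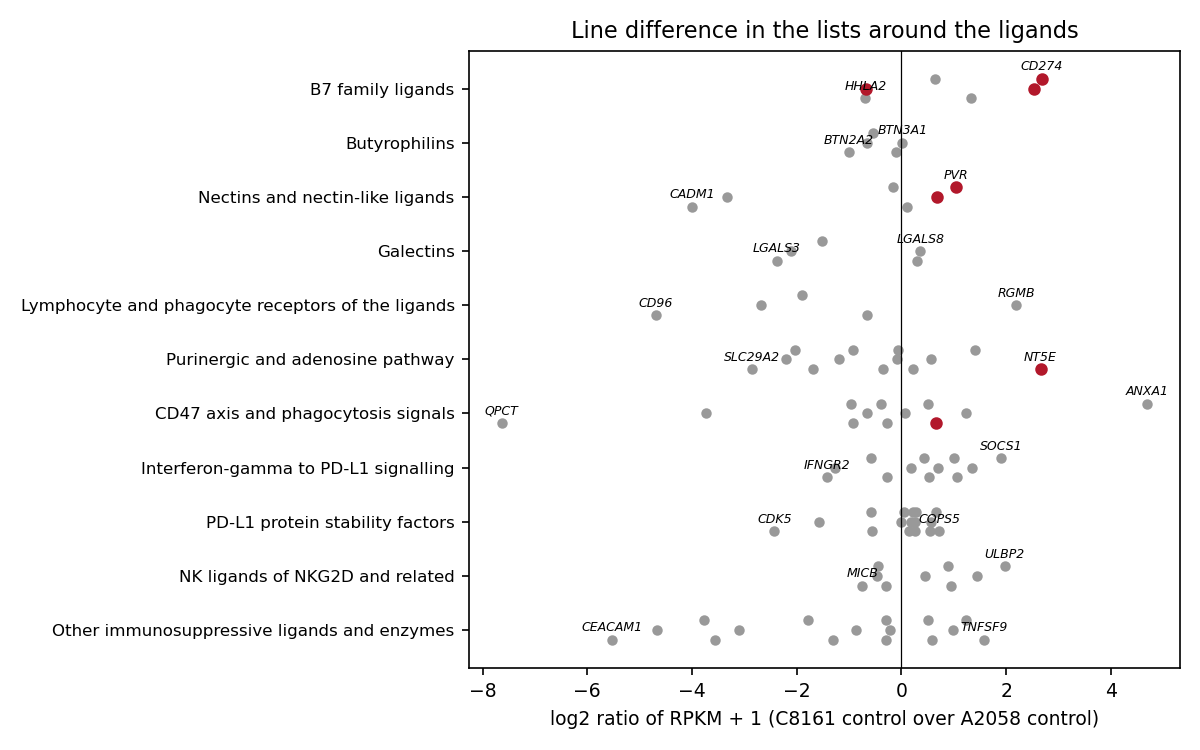
Each point is a gene at its log2 ratio of C8161 control over A2058 control, in rows for the lists around the ligands, with the 9 ligand genes in red where compared and the outermost gene of each row named. CD274, PDCD1LG2 and NT5E lie at the right of their rows, while CD96, QPCT and CEACAM1 lie far to the left of theirs.

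The genes closest to CD274, CD276 and NT5E over the 4 columns were sought by Euclidean distance on log2(RPKM + 1). Closest to CD274 were TFAP2C (distance 0.07), TMEM156 (0.18) and MSLN (0.20). Closest to CD276 were ZNF622 (0.11), CFAP298 (0.13) and MICALL1 (0.13), and closest to NT5E were ZFP36L1 (0.25), ANPEP (0.55) and RAC2 (0.61). ANPEP was at 111 RPKM with ATF3 and 99.3 RPKM in the control in C8161, against 22.7 and 21.6 RPKM in A2058. With 4 columns from 2 lines such likeness mainly records the line difference and the level.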

How the data were processed

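The authors deposited RPKM values per gene, written with 2 decimals, in 1 table over 8 RNA-seq libraries. The submitters' processing notes name Bowtie2, RSEM and hg38; the role of each, with any version, annotation, filter or strand choice, was not given in the sources used here. The C8161 columns are combined over 3 libraries, as a mean or from pooled reads, which is not stated. Symbols and coordinates came from RefSeq GRCh38.p14 and transcripts from GENCODE 29.

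A log2 ratio is log2(RPKM + 1) of the first group minus that of the second, computed where either column compared reached 1 RPKM. Sharing is the percentage of 50-base stretches of the longest transcript found in another gene. A2058 depth was estimated from steps of low values in transcripts of 400 to 1500 bases; no counts were recovered. Ratios, bands and trend removal were run on simulated data (Python 3.11.15, statsmodels 0.14.6). The simulation had counting noise, a GC trend and the same depth for both lines. Its set changes were larger than the ATF3 ratio of any member compared. It therefore does not show how ratios as small as those of the members behave.

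Members and lists were chosen with earlier results of these data known. Named were the members, ATF3, per list and line the highest gene and up to 2 with the largest ratio at 2 RPKM or more, receptors under 1 RPKM, and the 3 genes nearest to CD274, CD276 and NT5E; other genes are named as passing a count, as neighbours on the chromosome or as background for a member, and were picked after their values were seen. The limma fit planned for C8161 could not be fitted without values per library.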

Additional observations from a re-analysis of the deposited data

Results flagged for a closer look

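PVR was lower with ATF3 in C8161 (log2 ratio −0.17) and higher in A2058 (0.04), a difference of −0.21 between the lines. Opposite signs drew attention to it; the difference was not tested, and 51.5% of the 10331 genes compared in both lines had opposite signs.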

How the results depend on the processing

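No paired analysis was possible because the C8161 libraries share 1 combined column per arm; for the same reason the fits with a replicate block and without each replicate were not run. Pseudocounts of 0.1 and 0, no minimum, a minimum of 5 RPKM, quantile normalization, upper quartile scaling and removal of GC and length trends left 0 members past a log2 ratio of 0.25 with ATF3 in either line. CD47 in C8161 ranged from 0.17, after trend removal, to 0.24, and PVR from −0.18 to −0.12. NT5E in A2058 was −0.0014 after quantile normalization and −0.0038 after trend removal. The difference between lines for CD276 was −0.06, and 0.04 after trend removal. Between the lines, the members' median was 1.04 over 7 members and 0.68 over 9 with no minimum, since VTCN1 and LGALS9 then enter near 0. With a pseudocount of 0.1 the line ratios were 4.50 for CD274 and 5.10 for PDCD1LG2. Quantile normalization took the median line ratio of all genes to 0.08, against −0.19 as deposited; no member compared changed direction between the lines under any alternative run, and CD276 stayed between −0.74 and −0.58. Without replicate values and with C8161 depth not established, small ratios cannot be separated from noise.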
